A study of Homo sapiens with 30 samples.

Results

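Interferon-stimulated genes are the genes that cells switch on when an interferon reaches them, and the proteins they encode sense viral RNA, block viral entry and copying, or tune the response itself. A list of 40 such genes was followed through RNA sequencing of A549 cells, an established human lung carcinoma line of epithelial origin. All 40 matched 1 of the 60675 gene identifiers of the expected-count table, and 25 were kept because their mean level over the 30 libraries was at least 1 CPM (counts scaled to a common library size, here with totals adjusted by the trimmed mean of M values, TMM). The members just inside that limit were IFIT1 at a mean of 1.77 CPM and IFIT3 at 1.80 CPM, and those just outside were ISG15 at 0.946 CPM and IFIT2 at 0.899 CPM.

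Cells were exposed for 24 h to 0.1% dimethyl sulfoxide as the vehicle (3 libraries, all of batch E) or to ethanol extracts of herbal formulas, each a mixture of plants. Soshiho-tang and Yijin-tang were given at 500, 100 and 20 µg/mL with 3 libraries a dose, all of batch E. Okbyeongpung-san was given at the same doses with 2 libraries a dose, replicate 2 of batch E and replicate 3 of batch D, and its values are given below in that order. Soyo-san was given at the same doses with 1 library a dose, all of batch D. What the batch letters stand for is not given in the sources used here, and the series text names another percentage of dimethyl sulfoxide for the vehicle than the sample labels. The labels give no percentage for the extract libraries, so whether solvent also differed between vehicle and extracts is not known from them. Nothing in the labels says that replicates came from separate cultures, so p-values measure only the spread between these libraries, which may be technical. No group received an interferon or a virus, so the values describe the resting level of these genes and how it stood under each extract.

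In the textbook pathway, type I and type III interferons bind surface receptors whose Janus kinases phosphorylate STAT proteins. STAT2 and IRF9 then act in a complex named ISGF3, which binds a DNA element with repeated GAAA letters, the interferon-stimulated response element, before the target genes. Interferon gamma acts through STAT dimers on a different element, and IRF1 and IRF7 carry the response further.

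Library totals ran from 19833106 to 38008449 counts. The 3 vehicle libraries were the shallowest, at no more than 22327632 counts against at least 24560758 in the treated libraries. The 13 mitochondrial messenger RNAs took 10.5 to 10.9% of counts in the vehicle libraries and 6.22 to 9.89% in the treated ones, with the highest treated value in Okbyeongpung-san 500 µg/mL replicate 2. All 8 epithelial markers of the line were read in every library, from EPCAM at a mean of 5.32 CPM to KRT8 at 3221 CPM, with a summed level of 10075 to 12165 CPM in treated libraries and 10925 to 11266 CPM in vehicle. Among 8 immune markers CD3E had 0 counts, PTPRC had 3 counts in all libraries together, and CD68, a lysosomal gene also read in epithelial lines, led with a mean of 10.4 CPM. The immune sum was 9.37 to 22.8 CPM in treated libraries and 14.9 to 17.5 CPM in vehicle. Fibroblast markers summed to 17.6 to 32.7 CPM in treated libraries and 29.6 to 33.1 CPM in vehicle, nearly all of it COL1A1, and endothelial markers stayed at or below 0.375 CPM. In bulk libraries, fewer cells making a transcript and less of it per cell cannot be told apart.

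The DNA element was looked for in RefSeq promoter windows (assembly GRCh38.p14, 250 bases before to 50 after each annotated start), on both strands, as the letters GAAANNGAAA and as the longer GAAANNGAAACT, which contains the first. Windows were given for 33 of the 40 members. The shorter form was present in 22 of these 33 genes (66.7%) against 4.38% of 27305 genes with a window, and the longer form in 15 (45.5%) against 0.322%. Of the 22 kept members with a window, 13 held the shorter form and 9 the longer. The letters TTCNNNGAA, those of the interferon gamma element, were present in 10 of 33 members (30.3%) against 9.38% of all genes. A match of letters is a description of the sequence and does not show that a factor was bound. The following 30-base stretches are written 5′ to 3′ on the strand of the gene with the match in capitals. They are examples from some of the kept members whose level is discussed below and from ISG15, whose protein product several members handle. Matches of other kept members are not shown.

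IFI6, chr1:27672288-27672317, minus strand: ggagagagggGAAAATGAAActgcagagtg
IFITM3, chr11:320876-320905, minus strand: aaactgttgaGAAACCGAAActactgggga
IFIT5, chr10:89414513-89414542, plus strand: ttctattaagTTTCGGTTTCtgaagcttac
ISG20, chr15:88638937-88638966, plus strand: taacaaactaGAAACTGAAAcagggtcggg
PARP14, chr3:122680800-122680829, plus strand: tccaggaaacGAAAGCGAAAgagtcaaagt
OAS3, chr12:112938321-112938350, plus strand: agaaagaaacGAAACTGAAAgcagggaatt
ISG15, chr1:1013380-1013409, plus strand: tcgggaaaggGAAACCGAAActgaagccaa

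IFI6, IFITM3 and ISG15 carry the longer form, and IFIT5 carries it on the opposite strand, where it reads as TTTC repeats. ISG20, PARP14 and OAS3 carry only the shorter form in the stretch shown. No shorter form was in the window of STAT2, IRF9, UBE2L6, IFI35 or RIGI, which also appear below.

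The 40 genes spanned a wide range of levels. Per kilobase of transcript, IFITM2, an inhibitor of viral fusion in endosomes, was the most abundant at 20.2 CPM per kb, followed by OAS3 at 14.7 and UBE2L6 at 12.7 CPM per kb. OAS3, which makes the 2′-5′ oligoadenylate that activates RNase L, had the highest read level of all, a mean of 98.8 CPM with 87.5 to 109 CPM over the libraries. PARP14, an ADP-ribosyltransferase, stood at 43.3 CPM and STAT2 at 25.4 CPM. At the other end, 8 members had too few counts to be tested. IFI44L and XAF1 had 3 counts each over all 30 libraries, RSAD2 (viperin) 6, MX2 8, IFI44 11, BST2 (tetherin) 53, OAS2 91 and IFITM1 108. The highest level of any of these 8 in any library was 0.331 CPM, for IFITM1. The remaining 7 members below the limit (ISG15, IFIT2, IFIH1, OASL, MX1, IFI27 and CMPK2) had means of 0.290 to 0.946 CPM. Each of the 25 kept members had a mean of at least 1 CPM in all 13 groups, so none was kept through 1 group alone.

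**Figure D1:**
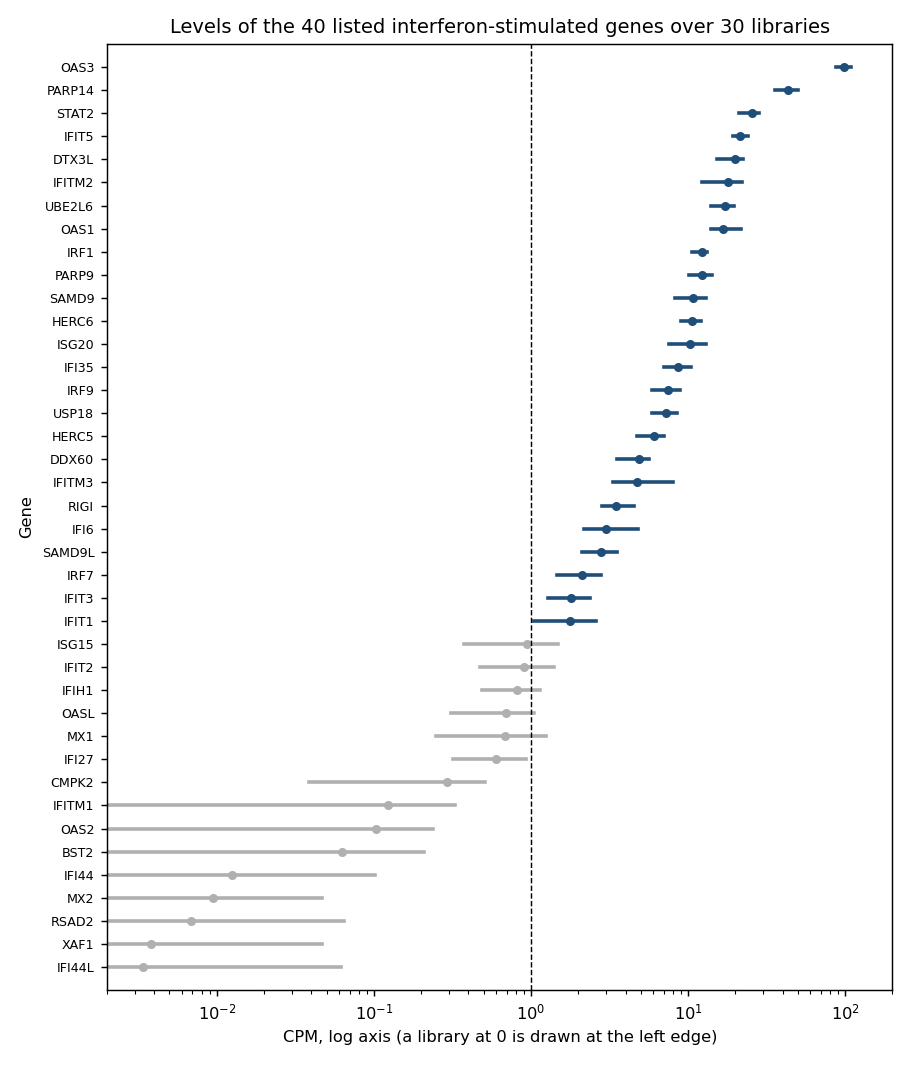
Mean CPM of each of the 40 genes (point) with the lowest and highest of the 30 libraries (line) on a log axis, with kept members in blue and the others in grey. The dashed line is the limit of 1 CPM, and the lines of the 8 lowest genes start at the left edge, where libraries at 0 are drawn.

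Summed over the 25 kept members, the level was 367.6 ± 4.75 CPM in vehicle (SD, n = 3), 370.2 ± 5.13 CPM in Soshiho-tang 500 µg/mL (SD, n = 3), 371.3 ± 8.21 CPM in Yijin-tang 500 µg/mL (SD, n = 3) and 359 ± 2.77 CPM in Okbyeongpung-san 500 µg/mL (SD, n = 2). Over all 13 groups the mean sum ran from 359 CPM to 379.1 CPM, the latter in Soshiho-tang 100 µg/mL. A few abundant genes, OAS3, PARP14 and STAT2 first among them, carry much of this sum, so it says little about the low members. For single members, the highest group mean divided by the lowest had a median of 1.33, from 1.08 for IRF1 to 1.90 for IFITM3. Over 13800 tested genes with a mean of at least 1 CPM that median was 1.29, so the spread of the members was close to that of genes in general.

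Differences were tested with edgeR's quasi-likelihood test across 17459 genes, and a gene is said to have risen or fallen where its Benjamini-Hochberg adjusted p was below 0.05. Against vehicle, 6 of 25 members (24%) passed in Soshiho-tang 500 µg/mL, beside 33.1% of all genes. In Soshiho-tang 100 µg/mL 1 member passed beside 10.8% of all genes. At Soshiho-tang 20 µg/mL the count was 0 by edgeR and by DESeq2, with 4 members at an unadjusted edgeR p below 0.05, beside 8.02% of all genes. Yijin-tang gave 3 members at 500 µg/mL (15.7% of all genes), 2 at 100 µg/mL (14.7%) and 0 at 20 µg/mL (10.2%), the last by edgeR and DESeq2 alike with 5 members at an unadjusted edgeR p below 0.05. Okbyeongpung-san gave 1 member at 500 µg/mL (14.9%), 0 at 100 µg/mL (9.49%) and 1 at 20 µg/mL (10.2%). At its 100 µg/mL, DESeq2 also called 0 and 6 members had an unadjusted edgeR p below 0.05. In each of these 9 comparisons the share of members called was below that of all genes. The median log2 difference of the 25 members from vehicle was 0.07 in Soshiho-tang 500 µg/mL, where it was 0.01 over all genes, and lay between -0.02 and 0.07 in the other 8. Of the 8 epithelial markers, 2 rose (KRT7 and KRT19) and 3 fell (KRT18, KRT8 and AKR1B10) in Soshiho-tang 500 µg/mL against vehicle.

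**Figure D2:**
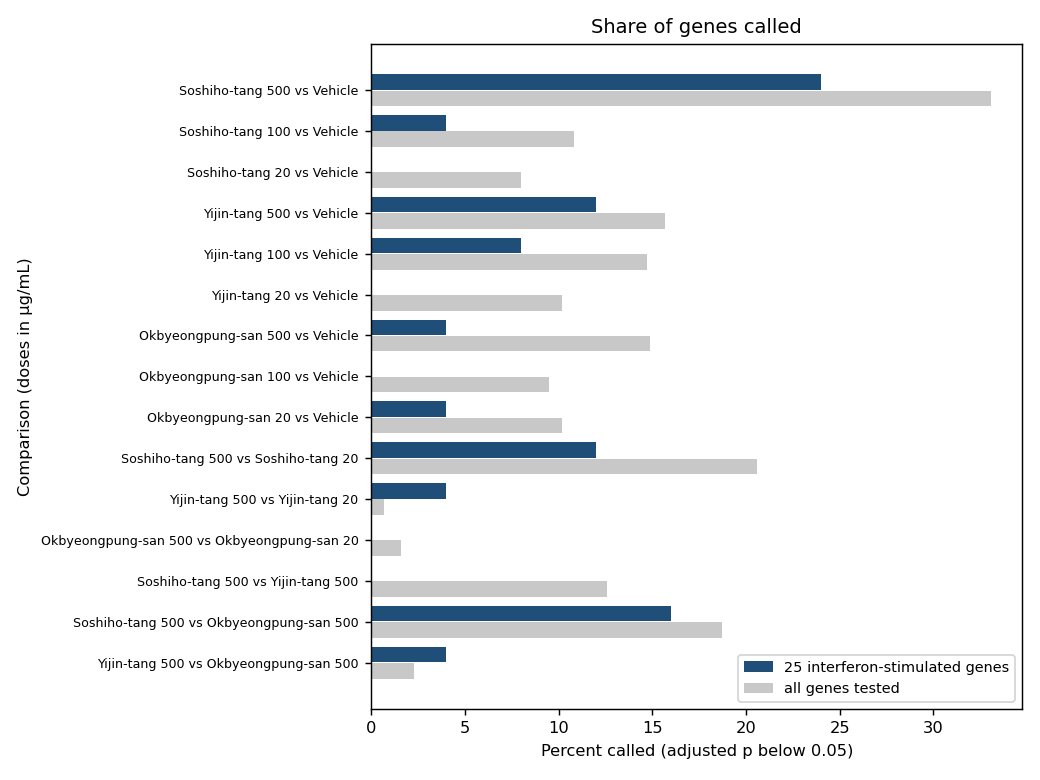
Percent of the 25 kept members (blue) and of all genes tested (grey) with an adjusted p below 0.05, for the 9 comparisons with vehicle, the 3 of 500 with 20 µg/mL and the 3 between extracts at 500 µg/mL. The blue bar is the shorter one in all comparisons with vehicle and reaches 24% beside 33.1% in the first.

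The sizes were small as well. In Soshiho-tang 500 µg/mL against vehicle the 95% interval of the log2 difference lay within 1 in either direction, a change of less than 2-fold, for 24 of 25 members, the exception being IFITM3. In Yijin-tang 500 µg/mL and Okbyeongpung-san 500 µg/mL it did so for all 25. These comparisons share the 3 vehicle libraries, so their values are given side by side and not as independent results.

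**Figure D3:**
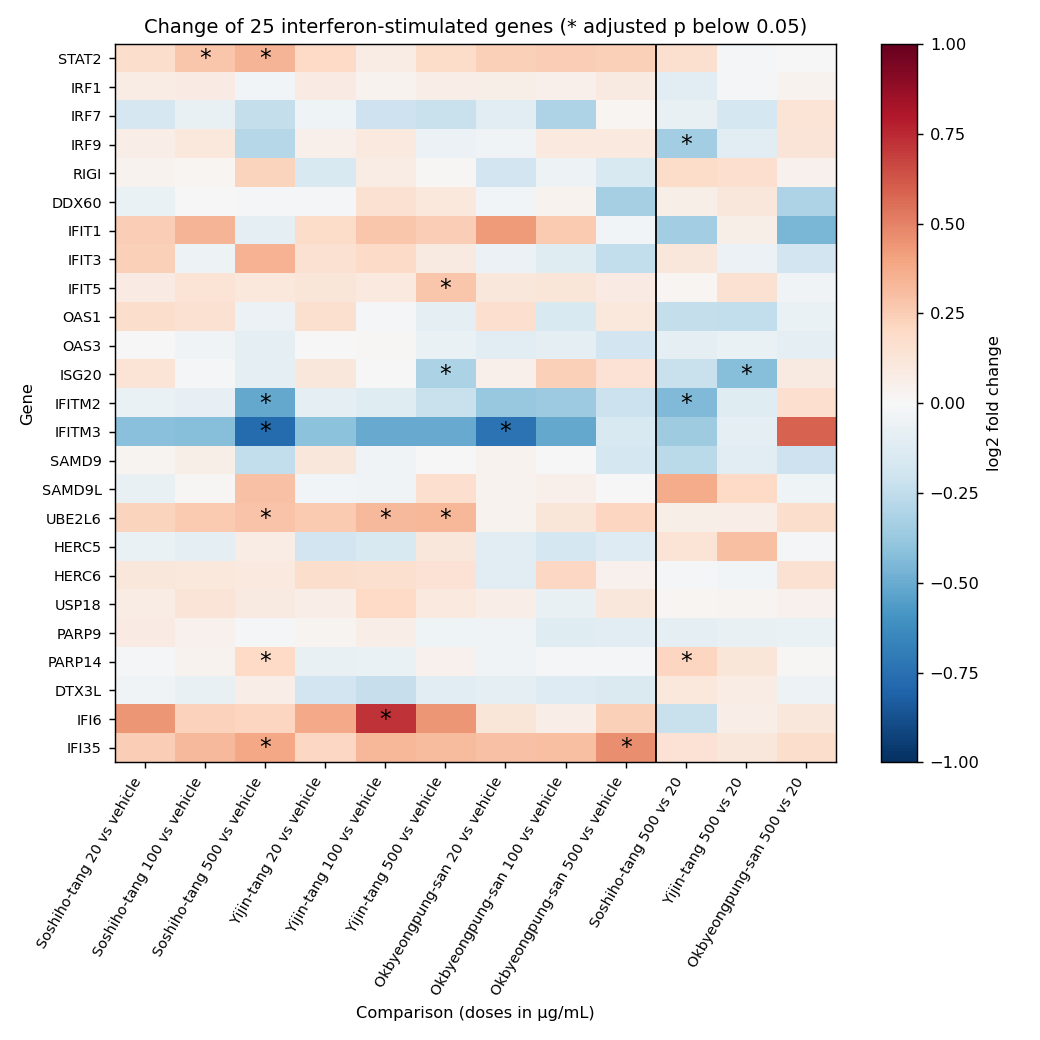
Log2 fold changes of the 25 kept members (rows) in the 9 comparisons with vehicle and the 3 of 500 with 20 µg/mL (columns), red for higher and blue for lower, with a star where the adjusted p was below 0.05. Most cells are pale. The IFITM3 row is blue in all 9 comparisons with vehicle and turns red (0.59, not called) only in Okbyeongpung-san 500 against 20 µg/mL, while the IFI35 row is red throughout.

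Among the factors that drive the pathway, STAT2 rose under Soshiho-tang. Its level was 21.2, 23.0 and 21.9 CPM in vehicle and 27.2, 28.1 and 28.1 CPM in Soshiho-tang 500 µg/mL, with no overlap between the groups. The log2 difference was 0.34 ± 0.08 (SE, adjusted p = 0.00152), and the call held under every alternative run, with adjusted p from 0.000188 to 0.0108. At 100 µg/mL STAT2 stood at 26.99, 28.5 and 24.8 CPM, all above vehicle, and rose by 0.28 ± 0.08 (SE, adjusted p = 0.0231). That second call was lost when vehicle replicate 1 or 3 or Soshiho-tang 100 µg/mL replicate 1 or 2 was left out, with adjusted p of 0.0768 to 0.11.

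Soshiho-tang 20 µg/mL gave 25.0, 23.8 and 25.9 CPM, and Yijin-tang 500 µg/mL gave 24.6, 23.3 and 27.1 CPM. Yijin-tang 100 µg/mL gave 25.4, 23.4 and 21.1 CPM and its 20 µg/mL gave 28.1, 24.2 and 23.5 CPM. Of the 27 treated libraries, 26 were above every vehicle library for STAT2, and replicate 3 of Yijin-tang 100 µg/mL was below all of them. Okbyeongpung-san gave 25.6 and 26.2 CPM at 500 µg/mL, 25.0 and 27.1 at 100 µg/mL and 26.1 and 26.0 at 20 µg/mL. None of these 7 groups was called against vehicle. Between 500 and 20 µg/mL the log2 difference of STAT2 was 0.16 for Soshiho-tang (95% interval 0.01 to 0.32, adjusted p = 0.133), -0.01 for Yijin-tang (-0.17 to 0.14) and -0.01 for Okbyeongpung-san (-0.19 to 0.18).

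IRF9, the DNA-binding subunit of ISGF3, showed another pattern. Soshiho-tang 500 µg/mL held 6.38, 5.87 and 6.03 CPM, below each of 8.22, 7.35 and 6.68 CPM in vehicle. Soshiho-tang 20 µg/mL held 6.65, 8.93 and 7.57 CPM and its 100 µg/mL held 7.61, 8.08 and 8.22 CPM. IRF9 fell from 20 to 500 µg/mL of Soshiho-tang by 0.35 on the log2 scale (SE 0.11, adjusted p = 0.0289), while against vehicle the difference of -0.28 was not called (adjusted p = 0.0683). The call between doses was lost when replicate 2 or 3 of either dose was left out (adjusted p 0.0596 to 0.243, the highest without Soshiho-tang 20 µg/mL replicate 2, where the difference was -0.22). In Yijin-tang IRF9 was 7.69, 6.46 and 7.23 CPM at 500 µg/mL, 8.10, 6.80 and 8.90 CPM at 100 µg/mL and 7.08, 8.13 and 7.74 CPM at 20 µg/mL, all overlapping vehicle. Okbyeongpung-san gave 8.19 and 7.57 CPM at 500 µg/mL, 8.42 and 7.37 CPM at 100 µg/mL and 7.72 and 6.75 CPM at 20 µg/mL.

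IRF1, an activator that both interferon gamma and double-stranded RNA can induce, was the steadiest member. It read 11.4, 13.2 and 10.96 CPM in vehicle and 12.7, 11.7 and 10.5 CPM in Soshiho-tang 500 µg/mL. Soshiho-tang 100 µg/mL gave 12.5, 12.7 and 12.4 CPM and 20 µg/mL gave 12.7, 12.2 and 12.6 CPM. In Yijin-tang it was 12.7, 12.02 and 12.5 CPM at 500 µg/mL, 12.7, 11.4 and 12.4 CPM at 100 µg/mL and 12.7, 12.4 and 12.7 CPM at 20 µg/mL. The groups overlapped throughout. Okbyeongpung-san held 12.97 and 12.2 CPM, 12.9 and 11.6 CPM, and 12.5 and 12.3 CPM from the highest dose to the lowest. IRF1 was called in no comparison, and its log2 difference from vehicle had an interval of -0.19 to 0.12 in Soshiho-tang 500 µg/mL and -0.09 to 0.22 in Yijin-tang 500 µg/mL.

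IRF7, the factor that amplifies interferon alpha production, was low and variable. Vehicle libraries held 2.77, 2.39 and 1.88 CPM and Soshiho-tang 500 µg/mL held 2.30, 2.19 and 1.47 CPM. Soshiho-tang gave 2.63, 2.03 and 1.99 CPM at 100 µg/mL and 1.75, 2.65 and 1.81 CPM at 20 µg/mL. Yijin-tang gave 1.84, 2.13 and 2.05 CPM at 500 µg/mL, 1.52, 2.20 and 2.33 CPM at 100 µg/mL and 2.18, 2.39 and 2.25 CPM at 20 µg/mL. No group stood clear of vehicle. Okbyeongpung-san gave 2.66 and 2.04 CPM at 500 µg/mL, 2.14 and 1.63 CPM at 100 µg/mL and 2.39 and 1.93 CPM at 20 µg/mL. The interval against vehicle in Soshiho-tang 500 µg/mL, -0.68 to 0.20, was wider than for IRF1.

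Of the 2 kept RNA sensors, neither was called against vehicle. RIGI, the receptor for viral RNA with a 5′ triphosphate, held 3.66, 3.92 and 4.52 CPM in Soshiho-tang 500 µg/mL and 2.93 and 3.35 CPM in Okbyeongpung-san 500 µg/mL, beside 3.66, 3.23 and 3.53 CPM in vehicle. The difference between these extracts was 0.37 ± 0.12 (log2, SE, adjusted p = 0.0321), which DESeq2 did not call (adjusted p = 0.104). It was also lost without filtering of low counts, with the offset for length and GC content, with only the compared groups fitted, or when Okbyeongpung-san 500 µg/mL replicate 2 or Soshiho-tang 500 µg/mL replicate 2 or 3 was left out (adjusted p 0.0527 to 0.359). DDX60, a helicase linked to RIGI signalling, ranged from 3.52 to 5.66 CPM.

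The clearest members in the downward direction were IFITM3 and IFITM2, whose proteins sit in endosomal membranes and hinder the fusion of enveloped viruses. IFITM3 held 6.80, 6.36 and 6.30 CPM in vehicle and 4.24, 3.32 and 3.85 CPM in Soshiho-tang 500 µg/mL, without overlap. It fell by 0.77 on the log2 scale (SE 0.20, adjusted p = 0.0046), and no alternative run ended that call (adjusted p 1.97e-06 to 0.0282). Soshiho-tang 100 µg/mL held 5.27, 4.06 and 5.12 CPM and 20 µg/mL held 4.90, 4.84 and 4.85 CPM. Yijin-tang held 4.70, 4.40 and 4.65 CPM at 500 µg/mL, 4.33, 4.00 and 5.36 CPM at 100 µg/mL, and 3.95, 5.33 and 5.36 CPM at 20 µg/mL. All of these libraries were below all 3 vehicle libraries. The differences of these 5 groups from vehicle lay between -0.50 and -0.41 and were not called, with adjusted p from 0.0817 to 0.203.

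In Okbyeongpung-san the libraries of 1 dose disagreed. IFITM3 held 8.03 CPM in replicate 2 (batch E) and 3.42 CPM in replicate 3 (batch D) of 500 µg/mL, 4.39 and 4.70 CPM at 100 µg/mL, and 3.57 and 4.21 CPM at 20 µg/mL. Replicate 2 of 500 µg/mL was the highest of all 30 libraries, and the 26 other treated libraries were all below vehicle. That library also had the largest total and the highest mitochondrial share among treated libraries, 38008449 counts and 9.89%, and the part of either in the IFITM3 value was not tested. At 20 µg/mL IFITM3 fell by 0.74 against vehicle (SE 0.23, adjusted p = 0.0394). The call was lost when any 1 of the 5 libraries of that comparison was left out (adjusted p 0.0763 to 0.27) and with batch as a term (adjusted p = 0.166). Soshiho-tang 500 µg/mL lay 0.62 below Okbyeongpung-san 500 µg/mL on the log2 scale (adjusted p = 0.0446), and without Okbyeongpung-san replicate 2 the difference changed sign to 0.16 (adjusted p = 0.747). Leaving out any of the 3 Soshiho-tang libraries, the replicate block, the offset for length and GC content, or fitting only the compared groups ended that call as well, at adjusted p of 0.05 to 0.27.

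IFITM2, its close relative, was lowest at the top dose of Soshiho-tang. It held 21.6, 22.1 and 18.4 CPM in vehicle, 16.9, 22.1 and 20.1 CPM in Soshiho-tang 20 µg/mL, 18.9, 19.1 and 20.6 CPM at 100 µg/mL and 12.3, 15.0 and 16.2 CPM at 500 µg/mL. The 500 µg/mL libraries were below all the others of this series of doses. IFITM2 fell by 0.51 against vehicle (log2, SE 0.13, adjusted p = 0.00285), a call kept under every alternative run, and by 0.44 against 20 µg/mL (SE 0.12, adjusted p = 0.0109). Without Soshiho-tang 500 µg/mL replicate 1 or 20 µg/mL replicate 2 the call between doses was lost (adjusted p = 0.0885 and 0.095). Yijin-tang held 16.9, 18.4 and 17.9 CPM at 500 µg/mL, 17.6, 19.5 and 19.7 CPM at 100 µg/mL and 16.8, 21.6 and 19.5 CPM at 20 µg/mL. Okbyeongpung-san held 20.5 and 15.0 CPM, 17.6 and 14.5 CPM, and 14.5 and 17.3 CPM from the highest dose to the lowest, and neither extract was called against vehicle at any dose. IFITM1, IFITM2 and IFITM3 are close copies, and the gene models of IFITM1 and IFITM2 overlap on the same strand, so how reads were divided among them is uncertain.

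The remaining kept members that restrict viruses were SAMD9 and SAMD9L, a pair of related cytoplasmic proteins. SAMD9 ranged from 8.24 to 12.9 CPM and SAMD9L from 2.12 to 3.52 CPM, and neither was called in any comparison. In Soshiho-tang 500 µg/mL the log2 difference from vehicle had a 95% interval of -0.50 to 0.01 for SAMD9 and -0.08 to 0.67 for SAMD9L.

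ISG15 is a ubiquitin-like protein attached to other proteins during the response. Members that handle it are the E2 enzyme UBE2L6, the ligase HERC5 and the protease USP18. USP18 removes ISG15 and also blocks the type I receptor. HERC6, a relative of HERC5, was grouped with them. UBE2L6 held 14.6, 15.6 and 14.6 CPM in vehicle. Soshiho-tang 500 µg/mL gave 18.5, 17.7 and 18.1 CPM, Yijin-tang 500 µg/mL gave 19.0, 18.9 and 18.4 CPM, and Yijin-tang 100 µg/mL gave 18.8, 18.2 and 19.1 CPM. None of these groups overlapped vehicle. UBE2L6 rose by 0.28 ± 0.09 in the first (log2, SE, adjusted p = 0.0166), by 0.33 ± 0.09 in the second (adjusted p = 0.0122) and by 0.33 ± 0.09 in the third (adjusted p = 0.0148). The call for Soshiho-tang was lost without vehicle replicate 1 or 3 (adjusted p = 0.0554 and 0.0587), and that for Yijin-tang 100 µg/mL without vehicle replicate 1 or 3 or its own replicate 3 (adjusted p 0.0535 to 0.0651). For Yijin-tang 500 µg/mL it held under every alternative run.

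The rest of the UBE2L6 values lay higher than vehicle in most libraries, 23 of 27 treated libraries in all. Soshiho-tang gave 19.0, 17.7 and 16.8 CPM at 100 µg/mL and 18.2, 18.2 and 15.7 CPM at 20 µg/mL, and Yijin-tang 20 µg/mL gave 15.7, 18.4 and 19.7 CPM. In Okbyeongpung-san the batch E library was above the batch D library at each dose, with 18.7 and 15.6 CPM at 500 µg/mL, 17.6 and 14.7 CPM at 100 µg/mL and 15.9 and 14.7 CPM at 20 µg/mL, so that replicate and batch cannot be told apart. Between 500 and 20 µg/mL no extract gave a called difference, at 0.06 (95% interval -0.11 to 0.24) for Soshiho-tang and 0.07 (-0.11 to 0.24) for Yijin-tang. HERC5 (4.72 to 7.06 CPM), HERC6 (8.97 to 12.1 CPM) and USP18 (5.88 to 8.45 CPM) were called in no comparison.

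**Figure D4:**
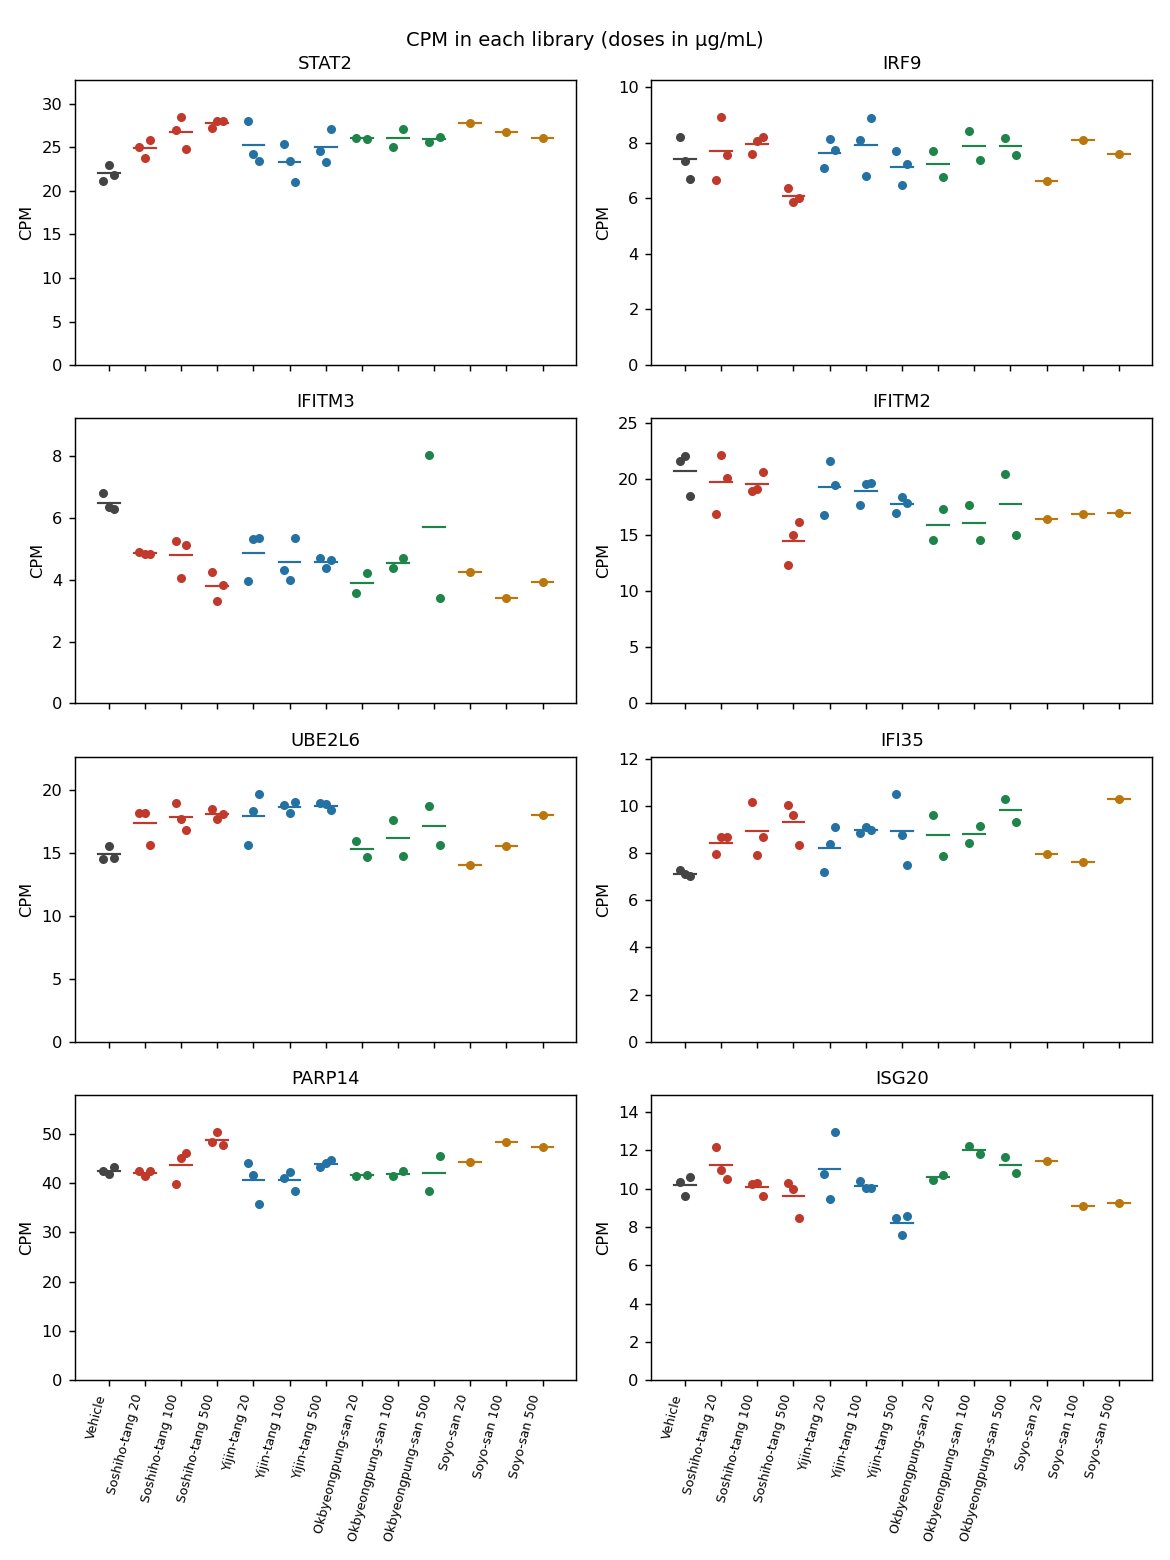
CPM of STAT2, IRF9, IFITM3, IFITM2, UBE2L6, IFI35, PARP14 and ISG20 in each of the 30 libraries (points), with group means as bars, vehicle in grey and extracts in colours by dose in µg/mL. IFITM3 is below vehicle in all treated libraries but 1, which reads 8.03 CPM, and IFI35 is above 7.27 CPM in all treated libraries but 1.

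IFI35, a protein that partners with NMI, behaved in a similar way against vehicle. Its level was 7.27, 7.10 and 7.01 CPM in vehicle, 10.0, 9.61 and 8.33 CPM in Soshiho-tang 500 µg/mL and 10.3 and 9.30 CPM in Okbyeongpung-san 500 µg/mL, with no overlap. It rose by 0.39 ± 0.12 in the former (log2, SE, adjusted p = 0.0155) and by 0.46 ± 0.13 in the latter (adjusted p = 0.0201). The former call was lost without vehicle replicate 3 or Soshiho-tang 500 µg/mL replicate 1 or 2 (adjusted p 0.0509 to 0.0574). The latter was lost without vehicle replicate 2 or 3 or Okbyeongpung-san replicate 2 (adjusted p 0.0543 to 0.157), with the offset for length and GC content (0.0655) and with only the compared groups fitted (0.0701).

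Yijin-tang 500 µg/mL held 10.5, 8.76 and 7.50 CPM of IFI35, Yijin-tang 100 µg/mL 8.84, 9.11 and 8.995 CPM and Yijin-tang 20 µg/mL 7.22, 8.36 and 9.12 CPM. Soshiho-tang held 10.2, 7.91 and 8.68 CPM at 100 µg/mL and 7.95, 8.69 and 8.67 CPM at 20 µg/mL, and Okbyeongpung-san 8.42 and 9.16 CPM at 100 µg/mL and 9.60 and 7.89 CPM at 20 µg/mL. Thus 26 of 27 treated libraries were above all vehicle libraries, the exception being Yijin-tang 20 µg/mL replicate 1. No difference between 500 and 20 µg/mL was called for any extract. For STAT2, IFIT5, UBE2L6, IFI35 and IFITM3 alike, at least 23 of 27 treated libraries were on 1 side of all vehicle libraries. Among the other kept members, DTX3L had 20 treated libraries below all vehicle libraries and HERC6 had 19 above. Such libraries were not counted for genes in general, so these counts do not set the members apart from other genes. The mitochondrial share and the library total separate the vehicle libraries from all treated ones, and their part in these differences was not tested.

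PARP14, PARP9 and DTX3L encode ADP-ribosyltransferases and the ubiquitin ligase that binds PARP9, and lie together on chromosome 3. PARP14 held 42.4, 41.9 and 43.3 CPM in vehicle, 42.4, 41.4 and 42.4 CPM in Soshiho-tang 20 µg/mL, 39.8, 45.1 and 46.0 CPM at 100 µg/mL and 48.4, 50.3 and 47.8 CPM at 500 µg/mL. The 500 µg/mL libraries were above all of these. PARP14 rose by 0.20 ± 0.07 against vehicle (log2, SE, adjusted p = 0.0265) and by 0.22 ± 0.07 against 20 µg/mL (adjusted p = 0.0225). The call against vehicle was lost without any 1 vehicle library or without Soshiho-tang 500 µg/mL replicate 2 (adjusted p 0.0517 to 0.101). The call against 20 µg/mL was lost without replicate 2 of either dose (adjusted p = 0.0997 and 0.0628) and with no filter on low counts (0.0502).

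PARP14 stood at 43.2, 44.1 and 44.6 CPM in Yijin-tang 500 µg/mL, 41.1, 42.4 and 38.3 CPM at 100 µg/mL and 44.2, 41.6 and 35.8 CPM at 20 µg/mL. Okbyeongpung-san held 38.4 and 45.6 CPM at 500 µg/mL, 41.5 and 42.4 CPM at 100 µg/mL and 41.5 and 41.7 CPM at 20 µg/mL. Neither extract was called against vehicle at any dose. The single Soyo-san libraries, which were not tested, held 44.4, 48.3 and 47.3 CPM at 20, 100 and 500 µg/mL, all above the vehicle libraries. PARP9 (10.2 to 14.1 CPM) and DTX3L (15.3 to 22.5 CPM) were called in no comparison. Their gene models overlap on opposite strands from a shared start region. The library kit keeps the strand, but whether the counting used it is not given in the sources used here.

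Members that bind or cut RNA include the IFIT proteins, which hold foreign 5′ ends, the oligoadenylate synthetases, and the exonuclease ISG20. IFIT5 rose in Yijin-tang 500 µg/mL. It held 24.1, 23.0 and 24.3 CPM there and 19.7, 19.8 and 19.3 CPM in vehicle, a difference of 0.28 ± 0.07 (log2, SE, adjusted p = 0.00626) that held under every alternative run (adjusted p 0.00281 to 0.0306). Yijin-tang 100 µg/mL gave 22.1, 21.6 and 19.6 CPM and 20 µg/mL gave 20.9, 21.1 and 22.1 CPM. Soshiho-tang gave 20.6, 20.8 and 22.0 CPM at 500 µg/mL, 22.3, 22.4 and 20.1 CPM at 100 µg/mL and 20.5, 20.1 and 21.9 CPM at 20 µg/mL. The 3 libraries of Yijin-tang 500 µg/mL were thus above all of these, although the difference from Yijin-tang 20 µg/mL was not called. Okbyeongpung-san gave 19.4 and 22.2 CPM, 20.4 and 22.3 CPM, and 20.5 and 22.0 CPM from the highest dose to the lowest, the batch D library being the higher at each dose. In all, 25 of 27 treated libraries were above every vehicle library for IFIT5, and the part of the library total and mitochondrial share in its difference from vehicle was not tested.

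ISG20 went the other way in the same libraries. Yijin-tang 500 µg/mL held 8.47, 7.59 and 8.57 CPM, below 10.4, 9.64 and 10.6 CPM in vehicle and 10.7, 9.45 and 12.9 CPM in Yijin-tang 20 µg/mL. ISG20 fell by 0.31 against vehicle (log2, SE 0.10, adjusted p = 0.032) and by 0.43 against 20 µg/mL (SE 0.09, adjusted p = 0.0253). It was the 1 member of 25 called between these doses, beside 0.705% of all genes. Against Okbyeongpung-san 500 µg/mL, at 11.7 and 10.8 CPM, it was lower by a log2 difference of -0.46 (SE 0.10, adjusted p = 0.0212), the 1 member called in that comparison beside 2.31% of all genes.

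These ISG20 calls rested on few libraries. That against vehicle was lost without vehicle replicate 1 or 3 or any 1 of the Yijin-tang 500 µg/mL libraries (adjusted p 0.0512 to 0.116), and with no filter on low counts (0.0948). That between doses was lost without any 1 of the 500 µg/mL libraries or 20 µg/mL replicate 1 or 3 (0.052 to 0.234), and that between extracts without Okbyeongpung-san replicate 2 or Yijin-tang replicate 2 (0.454 and 0.0856). With only the compared groups fitted, adjusted p was 0.338 between doses and 0.407 between extracts. Yijin-tang 100 µg/mL held 10.4, 10.0 and 10.1 CPM. Soshiho-tang held 10.3, 10.0 and 8.47 CPM at 500 µg/mL, 10.2, 10.3 and 9.63 CPM at 100 µg/mL and 12.2, 10.97 and 10.5 CPM at 20 µg/mL, and Okbyeongpung-san 12.2 and 11.8 CPM at 100 µg/mL and 10.5 and 10.7 CPM at 20 µg/mL.

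OAS3 and OAS1 were called in no comparison. OAS3 held 104.1, 99.6 and 103.2 CPM in vehicle and 97.0, 92.3 and 97.6 CPM in Soshiho-tang 500 µg/mL, where the 95% interval of the log2 difference was -0.23 to 0.04. OAS1 ranged from 13.9 to 21.7 CPM. IFIT1 (1.04 to 2.59 CPM) and IFIT3 (1.29 to 2.37 CPM) were also not called in any comparison, with 21 to 70 counts of IFIT1 in a library. In Soshiho-tang 500 µg/mL the 95% interval of the log2 difference from vehicle was -0.56 to 0.36 for IFIT1 and -0.07 to 0.77 for IFIT3, and both intervals include the 0.34 measured for STAT2.

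IFI6, a mitochondrial and endoplasmic reticulum protein that protects cells from flaviviruses, gave the largest called rise among the kept members. It held 2.30, 2.73 and 2.40 CPM in vehicle and 4.81, 3.60 and 3.89 CPM in Yijin-tang 100 µg/mL, without overlap. IFI6 rose by 0.72 ± 0.18 there (log2, SE, adjusted p = 0.00832), and the call held under every alternative run. The dose above gave less, 3.03, 3.30 and 3.77 CPM at 500 µg/mL, and the dose below gave 2.50, 3.00 and 4.17 CPM at 20 µg/mL. Soshiho-tang gave 2.45, 2.86 and 3.28 CPM at 500 µg/mL, 3.15, 2.88 and 2.73 CPM at 100 µg/mL and 3.80, 3.70 and 2.63 CPM at 20 µg/mL. Okbyeongpung-san gave 2.98 and 2.85 CPM at 500 µg/mL, 2.73 and 2.47 CPM at 100 µg/mL and 2.86 and 2.54 CPM at 20 µg/mL. None of these groups was called against vehicle.

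Comparisons within an extract do not involve vehicle. From 20 to 500 µg/mL of Soshiho-tang, 3 of 25 members were called (PARP14 higher, IFITM2 and IRF9 lower) beside 20.6% of all genes. Without Soshiho-tang 20 µg/mL replicate 2 none of the 3 was called, with adjusted p from 0.0628 to 0.243. In Okbyeongpung-san none was called, by edgeR or DESeq2, beside 1.59% of all genes, and 2 members had an unadjusted edgeR p below 0.05. The widest interval there was that of IFITM3, 0.09 to 1.08, which rests on the replicates that disagreed. For the other 24 members it lay within 1 log2 unit in either direction.

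**Figure D5:**
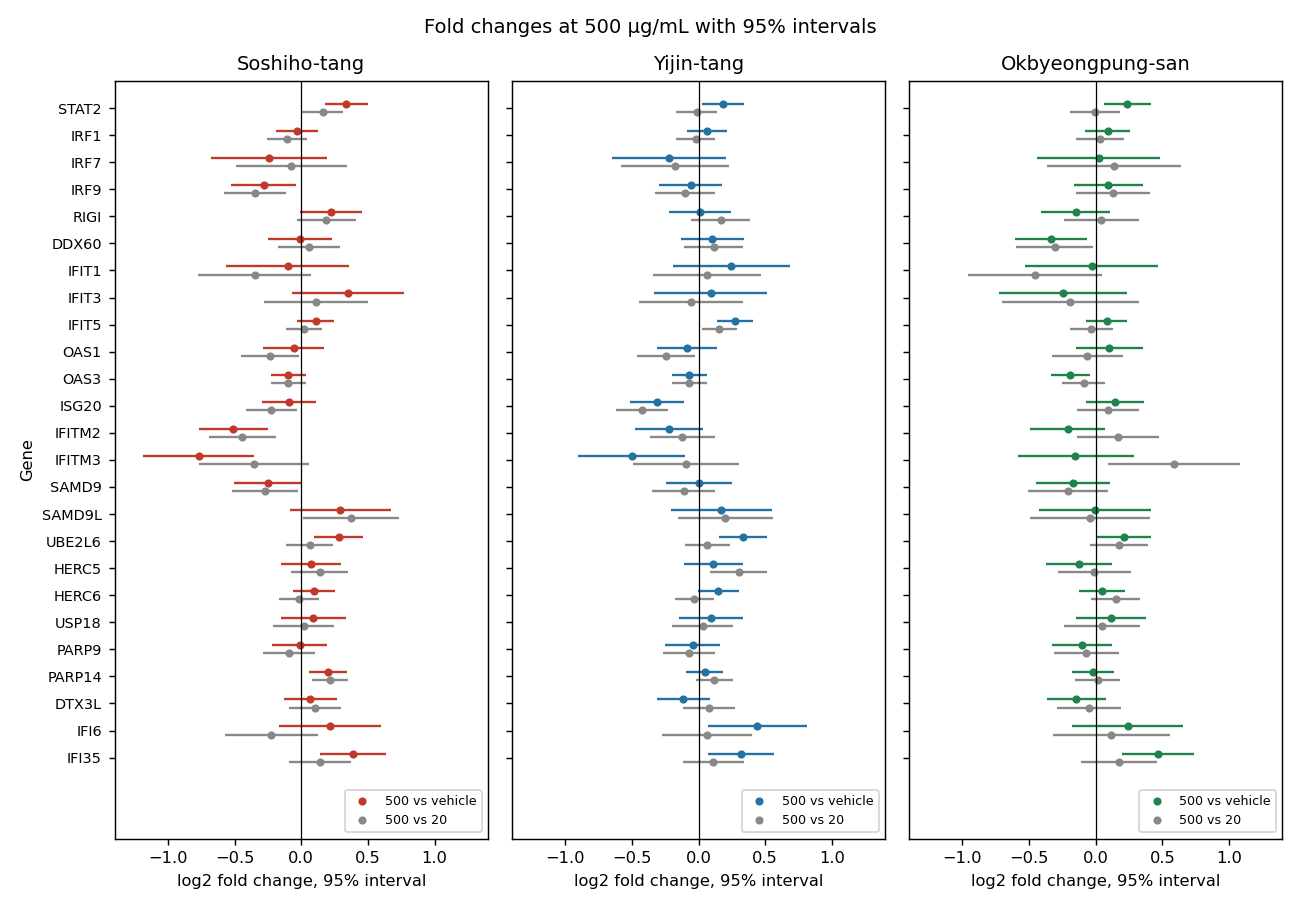
Log2 fold changes with 95% intervals of the 25 kept members for 500 µg/mL against vehicle (coloured) and against 20 µg/mL of the same extract (grey), 1 panel an extract. Most intervals cross 0, and IFITM3 in Soshiho-tang reaches furthest, to -1.19.

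At 500 µg/mL the extracts were also compared with each other, although they differ in the plants they hold and not by 1 compound. Between Soshiho-tang and Yijin-tang 0 of 25 members were called by edgeR and by DESeq2, with 6 at an unadjusted edgeR p below 0.05, beside 12.6% of all genes. Between Soshiho-tang and Okbyeongpung-san 4 were called (RIGI and PARP14 higher, IFITM3 and IRF9 lower in Soshiho-tang) beside 18.7% of all genes. PARP14 differed by 0.22 ± 0.08 (log2, SE, adjusted p = 0.0411), and IRF9 by -0.38 ± 0.12 (adjusted p = 0.034). Without Okbyeongpung-san 500 µg/mL replicate 2 none of the 4 was called, with adjusted p from 0.293 to 0.747. The same count of 0 was reached without Soshiho-tang replicate 2 or replicate 3, with the offset for length and GC content and with only the compared groups fitted.

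Whether the change from 20 to 500 µg/mL differed between extracts was tested as a contrast of its own. Between Soshiho-tang and Yijin-tang 0 members were called, and 0 had an unadjusted edgeR p below 0.05, beside 4.04% of all genes called. Against Okbyeongpung-san, in contrasts added after the data had been seen, 0 members were called for Soshiho-tang (4 at an unadjusted p, beside 7.01% of all genes called) and 0 for Yijin-tang (3 at an unadjusted p, beside 0.16%). DESeq2 called 0, 1 and 0 members in these 3 contrasts. Intervals for single members stayed within 1 log2 unit for all 25 in the first contrast and for 23 of 25 in each of the others.

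Among the 7 tested members under the limit of 1 CPM, IFIT2 and ISG15 were called. Of all genes, 33.1% were called in Soshiho-tang 500 µg/mL and 14.9% in Okbyeongpung-san 500 µg/mL against vehicle. The share was 20.6% between 500 and 20 µg/mL of Soshiho-tang. Against vehicle it was 15.7% in Yijin-tang 500 µg/mL and 14.7% in Yijin-tang 100 µg/mL. IFIT2 held 0.471 to 0.837 CPM in vehicle (10 to 16 counts a library), 0.919 to 1.401 CPM in Soshiho-tang 500 µg/mL, 0.481 to 0.722 CPM in Soshiho-tang 20 µg/mL and 1.198 to 1.316 CPM in Okbyeongpung-san 500 µg/mL. It rose by 0.83 ± 0.26 (log2, SE, adjusted p = 0.0168) in Soshiho-tang and by 0.96 ± 0.28 (adjusted p = 0.0221) in Okbyeongpung-san against vehicle, and by 0.95 ± 0.24 between 20 and 500 µg/mL of Soshiho-tang (adjusted p = 0.0065). The last held under every alternative run. The first was lost without vehicle replicate 3 or Soshiho-tang 500 µg/mL replicate 1 (adjusted p = 0.108 and 0.0755) and by DESeq2 (0.0558). The second was lost without vehicle replicate 2 or 3 or Okbyeongpung-san replicate 2 (0.0592 to 0.129) and with only the compared groups fitted (0.11).

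ISG15, the modifier itself, held 0.376 to 0.646 CPM in vehicle, only 8 to 13 counts a library, and 26 of 27 treated libraries were above all of these. It rose by 1.18 ± 0.31 in Yijin-tang 500 µg/mL (0.919 to 1.49 CPM, adjusted p = 0.0109) and by 1.03 ± 0.31 in Yijin-tang 100 µg/mL (1.04 to 1.12 CPM, adjusted p = 0.029). The former was lost without vehicle replicate 3 (adjusted p = 0.0728). The latter was lost without vehicle replicate 1 or 3 or Yijin-tang 100 µg/mL replicate 2 or 3 (0.0542 to 0.145). In Soshiho-tang ISG15 held 0.770 to 1.01 CPM at 500 µg/mL and in Okbyeongpung-san 0.881 to 1.18 CPM, neither called. The other 5 tested members under the limit, MX1 (0.249 to 1.24 CPM), OASL (0.311 to 1.05 CPM), IFIH1 (0.491 to 1.14 CPM), IFI27 (0.321 to 0.925 CPM) and CMPK2 (0.0389 to 0.509 CPM), were called in no comparison. IFI27 was below all vehicle libraries in 25 of 27 treated libraries.

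Upstream of these genes, the interferon genes looked at were close to absent, except IFNE, which had a mean of 2.31 CPM and was read in all 30 libraries. IFNA1 was the only interferon alpha gene among them. Of 8 interferon genes, IFNG, IFNL1 and IFNL2 had 0 counts in all 30 libraries, which allows a level of up to 0.0789 to 0.151 CPM in a library (3 counts, counting error only), and IFNB1 and IFNL3 had 1 count each. IFNK had 9 counts and IFNA1 had 76 counts over all libraries, with no library above 0.272 CPM. Only IFNE, the interferon made constitutively by some epithelia, was tested, at 2.24 ± 0.485 CPM in vehicle (SD, n = 3) and 2.85 ± 0.307 CPM in Soshiho-tang 500 µg/mL (SD, n = 3), and it was not called in any comparison of 500 µg/mL with vehicle or 20 µg/mL. CXCL10, a chemokine that interferon gamma induces strongly, also had 0 counts in all libraries.

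The receptors, kinases and STAT proteins were expressed, all 10 of those counted here at a mean of at least 1 CPM. Against vehicle, 1 rose and 2 fell in Soshiho-tang 500 µg/mL (33.1% of all genes called), 1 rose and 2 fell in Yijin-tang 500 µg/mL (15.7%), and 3 fell in Okbyeongpung-san 500 µg/mL (14.9%). Against 20 µg/mL of the same extract, 1 fell in Soshiho-tang 500 µg/mL (20.6%). The riser was IFNGR1, a chain of the interferon gamma receptor, by 0.25 ± 0.07 in Soshiho-tang (log2, SE, adjusted p = 0.005) and 0.24 ± 0.07 in Yijin-tang (adjusted p = 0.0149). The latter call was lost without vehicle replicate 2 or 3 or Yijin-tang 500 µg/mL replicate 1 or 2 (adjusted p 0.0516 to 0.0649). IFNGR1 also rose at 20 µg/mL of both extracts, by 0.22 in Soshiho-tang (adjusted p = 0.0378) and 0.29 in Yijin-tang (adjusted p = 0.00638), and between 500 and 20 µg/mL it differed by 0.03 and -0.05, not called. STAT3 held 200.6 ± 5.59 CPM in vehicle, 190.4 ± 2.37 CPM in Soshiho-tang 20 µg/mL and 155.7 ± 4.65 CPM in Soshiho-tang 500 µg/mL (SD, n = 3 each). STAT3, which serves interleukin 6 more than interferon, fell by 0.36 in Soshiho-tang 500 µg/mL against vehicle (SE 0.04, adjusted p = 4.31e-07) and by 0.29 against 20 µg/mL (adjusted p = 1.73e-05), both kept under every alternative run. JAK1 fell by 0.31 in Okbyeongpung-san 500 µg/mL (SE 0.06, adjusted p = 0.00103). It was also called lower than vehicle in Soshiho-tang 500 µg/mL (-0.205, adjusted p = 0.0026) and Yijin-tang 500 µg/mL (-0.18, adjusted p = 0.018). STAT3 was likewise called lower in Yijin-tang 500 µg/mL (-0.16, adjusted p = 0.0113) and Okbyeongpung-san 500 µg/mL (-0.18, adjusted p = 0.0142). The Yijin-tang calls of both genes and the Okbyeongpung-san call of STAT3 were lost under some alternative runs.

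Of 11 tested genes of sensing and induction, 1 rose and 1 fell in each of Soshiho-tang and Yijin-tang at 500 µg/mL against vehicle, and 1 rose in Okbyeongpung-san, beside 33.1%, 15.7% and 14.9% of all genes called. Against 20 µg/mL 3 rose in Soshiho-tang, beside 20.6% of all genes called. TRIM25, the ubiquitin ligase that acts on RIGI, held 91.9 ± 1.89 CPM in vehicle, 93.4 ± 2.49 CPM in Soshiho-tang 20 µg/mL and 137.8 ± 5.89 CPM in Soshiho-tang 500 µg/mL (SD, n = 3 each). It rose by 0.59 ± 0.04 against vehicle (log2, SE, adjusted p = 3.32e-10) and by 0.56 ± 0.04 against 20 µg/mL (adjusted p = 6.21e-10), and both calls held under every alternative run. TICAM1, the adaptor of TLR3, fell by 0.55 in Yijin-tang 500 µg/mL against vehicle (SE 0.13, adjusted p = 0.00477). It was called lower than vehicle at every dose of Soshiho-tang and Yijin-tang and at 100 and 20 µg/mL of Okbyeongpung-san, with log2 differences of -0.60 to -0.37, and between Yijin-tang 500 and 20 µg/mL the difference was -0.07 (95% interval -0.33 to 0.19, not called). In Soshiho-tang 500 µg/mL the TICAM1 call was lost without vehicle replicate 2 or 3 or its own replicate 1 or 3 (adjusted p 0.0623 to 0.115).

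Of 8 tested negative regulators, 2 rose and 2 fell in Soshiho-tang 500 µg/mL against vehicle, and only falls were called in the other extracts (1 in Yijin-tang and 3 in Okbyeongpung-san), beside 33.1%, 15.7% and 14.9% of all genes called. SOCS3, a feedback inhibitor of JAK signalling, held 23.6 ± 1.86 CPM in vehicle and 31.2 ± 3.02 CPM in Soshiho-tang 500 µg/mL (SD, n = 3 each), a rise of 0.40 ± 0.08 (log2, SE, adjusted p = 0.000214). PIAS1, an inhibitor of STAT binding, fell by 0.55 there (SE 0.06, adjusted p = 3.92e-07), and both held under every alternative run. PIAS1 was also called lower than vehicle in Yijin-tang 500 µg/mL (-0.33, adjusted p = 0.00113) and Okbyeongpung-san 500 µg/mL (-0.34, adjusted p = 0.00336). The last of these calls was lost with the offset for length and GC content (0.122). Further PIAS1 falls against vehicle were called at 100 µg/mL of each of these extracts and at 20 µg/mL of Okbyeongpung-san. Between 500 and 20 µg/mL of Soshiho-tang PIAS1 differed by -0.37 (adjusted p = 0.000129).

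Antigen presentation is a branch that interferons also raise. Against vehicle, 7 of 15 genes rose and 0 fell in Soshiho-tang 500 µg/mL, 5 rose and 0 fell in Yijin-tang, and 3 rose and 0 fell in Okbyeongpung-san, with median log2 differences of 0.17, 0.16 and 0.13. Of all genes, 33.1%, 15.7% and 14.9% were called in these comparisons, in both directions together. Against 20 µg/mL of the same extract, 2, 0 and 1 rose and 0 fell, beside 20.6%, 0.705% and 1.59% of all genes called. At the lower doses, where 8.02 to 14.7% of all genes were called, 1 to 5 genes rose against vehicle and 1 fell, TAPBP in Yijin-tang 20 µg/mL, named after its value was seen. PSMB8, a subunit of the immunoproteasome, held 4.63 ± 0.159 CPM in vehicle, 5.79 ± 0.666 CPM in Soshiho-tang 20 µg/mL and 8.24 ± 0.443 CPM in Soshiho-tang 500 µg/mL (SD, n = 3 each). It rose by 0.83 ± 0.11 against vehicle (log2, SE, adjusted p = 2.08e-06) and by 0.51 ± 0.10 against 20 µg/mL (adjusted p = 0.000502), calls that held under every alternative run. PSMB8 was also called higher than vehicle in Soshiho-tang 100 µg/mL and at every dose of Yijin-tang and Okbyeongpung-san. Between 500 and 20 µg/mL of Yijin-tang or Okbyeongpung-san PSMB8 was not called. PSMB10 rose by 0.54 ± 0.14 against vehicle (adjusted p = 0.00488). PSMB10 was also called higher than vehicle in Yijin-tang 500 and 100 µg/mL and in Okbyeongpung-san 20 µg/mL. As stated for STAT2, the mitochondrial share and library total also separate vehicle from all treated libraries. The 13 mitochondrial messenger RNAs gave 12, 11 and 7 falls against vehicle at 500 µg/mL of Soshiho-tang, Yijin-tang and Okbyeongpung-san and 1, 0 and 0 against 20 µg/mL.

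A list of 30 interferon-inducible genes outside the 40, of which 26 were tested, gave calls in both directions. In Soshiho-tang 500 µg/mL 4 rose and 5 fell against vehicle (33.1% of all genes called), and 6 rose and 3 fell against 20 µg/mL (20.6%). Yijin-tang 500 µg/mL gave 2 rises and 2 falls against vehicle (15.7%) and Okbyeongpung-san 1 rise and 1 fall (14.9%), and neither gave a call against 20 µg/mL. NMI, the partner of IFI35, rose by 0.86 ± 0.08 in Soshiho-tang 500 µg/mL against vehicle (log2, SE, adjusted p = 1.22e-08) and by 0.67 ± 0.08 against 20 µg/mL (adjusted p = 3.57e-07). ZC3HAV1, the zinc finger antiviral protein, fell by 0.64 against vehicle (SE 0.08, adjusted p = 1.64e-06) and by 0.57 against 20 µg/mL (adjusted p = 1.38e-05). These 4 calls held under every alternative run. NMI was also called higher than vehicle in Soshiho-tang 100 µg/mL and Yijin-tang 500 µg/mL. ZC3HAV1 was also called lower than vehicle in Yijin-tang 500 µg/mL and Okbyeongpung-san 500 µg/mL, calls that were lost with some libraries left out.

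Soyo-san has 1 library a dose and no vehicle of its batch, so its values carry no replicate check and no test was made. The 25 kept members summed to 363.5 CPM at 20 µg/mL, 373.1 CPM at 100 µg/mL and 374.4 CPM at 500 µg/mL, within the range of the other groups. IFITM3 read 4.26, 3.42 and 3.94 CPM from the lowest dose to the highest, all below the vehicle libraries, and STAT2 read 27.8, 26.8 and 26.1 CPM, all above them. UBE2L6 read 14.1, 15.6 and 18.0 CPM and IFI35 7.95, 7.64 and 10.3 CPM in the same order. At 20 µg/mL the library had the lowest UBE2L6 and the lowest IFI6 (2.17 CPM) of all 30.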

How the data were processed

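The deposited table holds expected counts per gene for 30 libraries. The submitters' processing notes name RSEM 1.3.3, the aligner STAR 2.7.3a, the trimmer Trim Galore 0.6.5 and FastQC 0.11.9, on build hg38. Which gene annotation was counted, and whether strand was used, is not given in the sources used here. Between 9.09 and 11.6% of values in a library were not whole, since RSEM divides reads shared by genes, and they were rounded.

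The 40 genes, the other lists and the tests were chosen with earlier results of these data known. Symbols came from a separate list of gene names matched by Ensembl identifier, and lengths and overlaps from GENCODE release 29. edgeR 4.0.16 (R 4.3.3) fitted TMM-scaled counts of 27 libraries in 10 groups by quasi-likelihood, after its expression filter, and p-values were adjusted by Benjamini-Hochberg over 17459 genes at a threshold of 0.05. The SE is the log2 fold change divided by the root of the F statistic, and intervals are at 95%. The biological coefficient of variation was 6.89%. Soyo-san, with 1 library a dose, was left out of the fit. The script was tested on simulated counts.

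Per-library values are given for STAT2, IRF1, IRF7 and IRF9 and for called members with the largest changes in each comparison (at most 4 a direction). A gene of the list of receptors and kinases is not reported here and is left out of its counts. Of the genes of other lists called at 500 µg/mL, only some were named. Those not described above include IRF2, NLRX1, IKBKE, CGAS, TRAF3, JAK2, ERAP1, NLRC5, IFI16 and APOL1. Calls of NLRC5, APOL1, JAK2 and CGAS were lost under some alternative runs, while the IRF2 fall in Soshiho-tang 500 µg/mL against vehicle held. Alternatives were median-of-ratios scaling, no filter, a replicate block, a batch term, an offset for length and GC content, only the compared groups, DESeq2 1.42.0, each library left out and, chosen after seeing the data, batch E libraries only. Figures were drawn with matplotlib 3.10.9.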

Additional observations from a re-analysis of the deposited data

How the results depend on the processing

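Counts of members called moved with the setting in most comparisons, and the cause was not tested except that leaving out a library or other groups leaves fewer samples. Against vehicle, Soshiho-tang 100 µg/mL (1 called) gave 2 with no filter on low counts, 2 with a batch term, 2 with the length and GC offset and 3 with only the compared groups, and 0 to 2 with a library left out. Soshiho-tang 20 µg/mL (0) gave 1 with only the compared groups. Soshiho-tang 500 µg/mL (6) gave 4 to 6 with a library left out. Yijin-tang 500 µg/mL (3) gave 5 with the offset and 6 with only the compared groups. Yijin-tang 100 µg/mL (2) gave 4 with no filter and 4 with only the compared groups, and 1 to 2 with a library left out. Yijin-tang 20 µg/mL (0) gave 1 with no filter, 1 with the replicate block, 1 with the batch term and 1 with the offset, and 0 to 2 with a library left out. Okbyeongpung-san 500 µg/mL (1) gave 3 with the replicate block, 2 with the batch term, 0 with only the compared groups, 2 with batch E libraries only and 2 with DESeq2, and 0 to 3 with a library left out. Okbyeongpung-san 100 µg/mL (0) gave 2 with no filter, 1 with the replicate block, 2 with the offset and 5 with only the compared groups. Okbyeongpung-san 20 µg/mL (1) gave 2 with no filter, 2 with the replicate block, 0 with the batch term, 3 with the offset and 3 with only the compared groups, and 0 with any library left out.

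Between 500 and 20 µg/mL, Soshiho-tang (3) gave 6 with the offset and 6 with only the compared groups, and 0 to 3 with a library left out. Yijin-tang (1) gave 0 with only the compared groups and 0 to 1 with a library left out. Okbyeongpung-san (0) gave 1 with no filter, 1 with batch E libraries only, and 0 to 1 with a library left out. At 500 µg/mL, Soshiho-tang against Yijin-tang (0) gave 1 with no filter, 2 with the offset and 1 with only the compared groups. Soshiho-tang against Okbyeongpung-san (4) gave 0 with the offset and 0 with only the compared groups, and 0 to 6 with a library left out. Yijin-tang against Okbyeongpung-san (1) gave 3 with the batch term, 0 with only the compared groups and 4 with batch E libraries only, and 0 to 4 with a library left out. For the difference of dose effects, Soshiho-tang against Okbyeongpung-san (0) gave 2 with no filter, 1 with the replicate block, 2 with batch E libraries only and 1 with DESeq2, and 0 to 3 with a library left out. Yijin-tang against Okbyeongpung-san (0) gave 1 with batch E libraries only and 0 to 2 with a library left out.

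IFITM3 between Soshiho-tang and Okbyeongpung-san at 500 µg/mL ranged from -1.075 to 0.155 with a library left out, reversing (adjusted p = 0.747) without Okbyeongpung-san replicate 2. Of called values of single members, 149 kept their call and 19 lost it across settings that keep all libraries or restrict them to a batch or to the compared groups. With a library left out 73 kept it, 57 lost it and 1 reversed. A minimum mean of 0.5 CPM kept 31 genes and 2 CPM kept 23. Deviations of same-numbered libraries correlated between -0.147 and 0.158, and in no comparison with 3 pairs did every pair exceed 0.1, so the numbers were not taken to pair the libraries. Where 1 library is left in a group, it is assumed to vary like the other groups. Counts of 8 to 70 a library limit IFIT1, IFIT2 and ISG15.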
